A study of Mus musculus with 12 samples.

Results

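The step from the middle turn into the base of the mouse cochlea was read by comparing the 4 arrays labelled as cochlea middle turn with the 4 labelled as cochlea basal turn, 8 of the 12 single-colour exon arrays in the series. The other 4 arrays hold the apical turn and served to estimate the spread between arrays. Both groups came from male C57BL/6 mice aged 6 weeks, for which the labels give neither a treatment nor an altered gene, and each array received labelled RNA from 25 ng of total RNA. Per the methods and the labels, 4 mice were used, the bony capsule was taken off, and each turn held lateral wall, organ of Corti and spiral ganglion neurons together. The labels number the samples 1 to 4 in each turn without saying whether a number marks a mouse, so p-values measure the spread between these samples. A single slide carried all 4 arrays of a turn and was scanned at its own time, so turn, slide and scan cannot be told apart in any difference given here.

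The cochlea is a coiled tube in which sound of high pitch is sensed at the base and sound of low pitch toward the apex. Inner and outer hair cells stand on the basilar membrane and turn its movement into electrical signals, which the spiral ganglion neurons in the core of the coil pick up at glutamate synapses and carry to the brain, wrapped in myelin from Schwann cells. The lateral wall, with the stria vascularis and the fibrocytes of the spiral ligament, keeps the potassium-rich fluid around the hair bundles. A piece of a turn holds all of these tissues, so a gene's signal follows both how much a cell makes and how much of that cell lay in the piece. Fewer cells of a type and less RNA per cell cannot be told apart in such samples.

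Signals are fluorescence intensities with each array scaled to its 75th percentile, and a gene's value is the mean log2 signal of all probes with its name. Signals are printed on the linear scale, in the order of replicates 1 to 4 and with the middle turn before the base, and differences as log2 of the middle turn over the base with a standard error (SE) unless the reverse is stated. A gene was counted as called when limma's contrast of both turns, fitted over all 12 arrays, had an adjusted p under 0.05 and the difference was 2-fold or more. Of 19505 genes, 431 were called higher in the middle turn (2.21%) and, toward the base, 88 (0.451%), together 519 (2.66%). On the adjusted p alone, 2275 genes (11.7%) lay on the middle side against 1796 (9.21%) on the basal side, so that most differences were under 2-fold. The median difference of all genes was 0.038 log2 units. Before scaling, the 75th percentile ran from 534.6 to 702.2 on the 8 arrays, and from 77.4% to 81.4% of spots were well above background. Spike-in transcripts, added in fixed amounts, read 0.27 log2 units higher in the middle turn after scaling. With scaling to these spike-ins, the median of all genes moved to -0.23, and 210 genes were called on the middle side against 252 on the basal side, so that the share of calls on the middle side was 45.5% against 83.0%.

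The probes are DNA strands of 60 bases, each inside an exon. For 6 genes on which the results turn, 1 probe each is printed 5′ to 3′, chosen as the brightest of the gene's exon-by-exon probes in the turn with the higher signal. Rbp4 and Sfrp4 stand for genes higher in the base, Emilin2 and Kcnip4 lead those higher in the middle turn, Slc26a5 marks outer hair cells and Nefl marks nerve fibres.
Rbp4: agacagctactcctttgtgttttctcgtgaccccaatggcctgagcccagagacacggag
Sfrp4: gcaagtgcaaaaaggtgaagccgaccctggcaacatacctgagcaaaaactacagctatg
Emilin2: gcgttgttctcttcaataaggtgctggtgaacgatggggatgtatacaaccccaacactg
Kcnip4: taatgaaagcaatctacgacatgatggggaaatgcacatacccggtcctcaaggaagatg
Slc26a5: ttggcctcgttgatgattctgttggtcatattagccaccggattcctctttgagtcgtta
Nefl: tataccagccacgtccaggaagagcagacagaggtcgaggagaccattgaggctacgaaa
On build mm9 the files place the Rbp4 probe at chr19:38192827-38192886 on the minus strand, the Sfrp4 probe at chr13:19717069-19717128 on the plus strand and the Emilin2 probe at chr17:71604459-71604518 on the minus strand. The Kcnip4 probe lies at chr5:48787922-48787981 and the Slc26a5 probe at chr5:21326853-21326912, both on the minus strand, and the Nefl probe at chr14:68704701-68704760 on the plus strand. The Rbp4 probe alone read 76.2, 50.8, 103 and 143 in the middle turn and 10670, 15360, 9058 and 18460 in the base. All 6 probes of Rbp4, all 6 of Sfrp4, all 7 of Emilin2, all 8 of Kcnip4, all 17 of Slc26a5 and all 4 of Nefl differed in the direction of their gene. Among the probes of Rbp4 the difference ran from -2.20 to -8.22, and among those of Nefl only from 1.55 to 1.70.

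Genes of the nerve were higher in the middle turn. Of 18 markers of spiral ganglion neurons and nerve fibres, 14 were called higher in the middle turn and none higher in the base, with a median difference of 1.37 against 0.038 over all genes. Nefl, the light chain of the neurofilaments that fill axons, read 17470, 9898, 11480 and 10240 in the middle turn and 4065, 1835, 9098 and 3097 in the base. The third basal array was close to the middle turn, while the other 3 read far lower. The difference of Nefl was 1.65 (SE 0.39), with an adjusted p of 0.013 from limma. Calb2, the calcium-binding protein calretinin, read 21520, 12010, 13470 and 12800 against 3834, 2093, 9931 and 2920, and its difference was 1.90 (SE 0.39; limma adjusted p = 0.00717). Ina, another neuronal filament protein, differed by 1.86 (SE 0.39; limma adjusted p = 0.00767). Snap25, a membrane fusion protein of nerve endings, read 8758, 5186, 5278 and 5042 against 2339, 1257, 4762 and 1502, a 2.75-fold difference (limma adjusted p = 0.0144). Slc17a7, the transporter that loads glutamate into vesicles, was 2.49-fold higher in the middle turn (limma adjusted p = 0.0143).

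The list was not uniform. Syt1, a calcium sensor of vesicle release, had the smallest adjusted p of the list (0.00034, limma), with 87.7, 60.2, 73.8 and 66.6 in the middle turn and 27.0, 23.6, 39.1 and 22.04 in the base. Its basal replicate 3 lay below all middle arrays, further from them in proportion than for Nefl. Rbfox3, which encodes the neuronal nuclear protein NeuN, ran from 417 to 597 in the middle turn and from 261 to 539 in the base, and its difference of 0.38 (SE 0.19) did not pass limma's test (adjusted p = 0.184). Prph, a filament protein of the sparser type of spiral ganglion neuron, differed by 0.36 (SE 0.11; limma adjusted p = 0.0418), which is under 2-fold. Gap43, a protein of growing axons, differed by 0.23 (SE 0.22; limma adjusted p = 0.466), and by -0.037 with spike-in scaling.

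The mean log2 signal of the 18 nerve markers, used below as the nerve score of an array, was 10.50, 9.80, 10.01 and 9.83 on the middle arrays. On the basal arrays it was 8.79, 8.04, 9.75 and 8.47. The summed signal of the list ran from 44011 to 77719 in the middle turn and from 9630 to 40570 in the base, and no marker was below background on all 4 arrays of either turn. Basal replicate 3 fell just under the lowest middle array, and the spread between basal arrays (SD 0.72, n = 4) was wider than between middle arrays (SD 0.33, n = 4). Middle replicate 1 had the highest score of the 8.

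**Figure D1:**
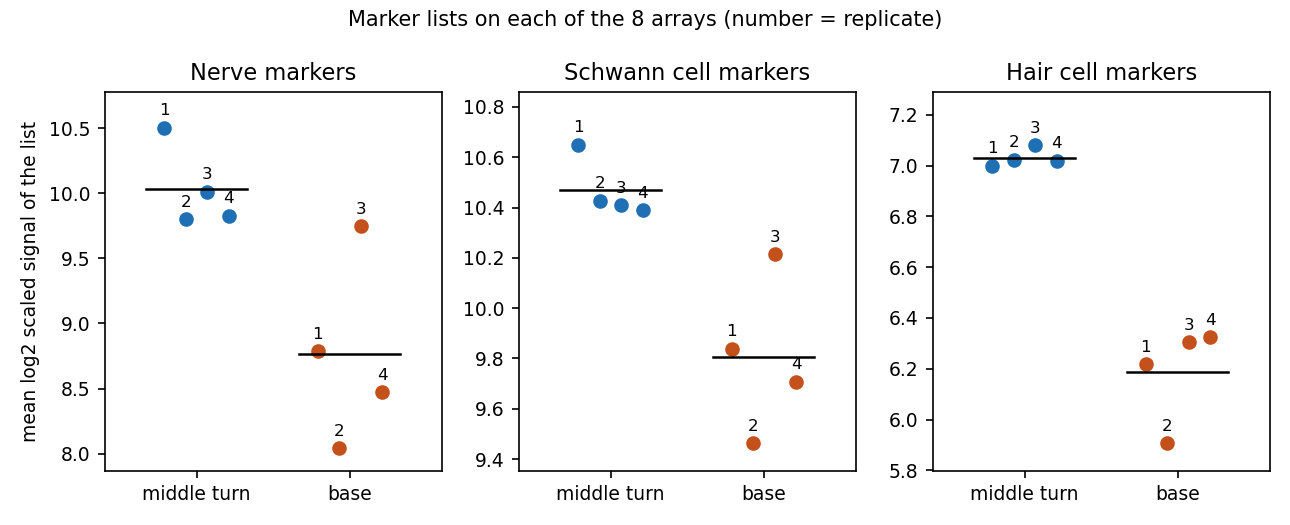
Mean log2 scaled signal (y axis) of the nerve, Schwann cell and hair cell marker lists on each of the 8 arrays, with the replicate number above each point and a line at the mean of each turn. Basal replicate 3 sits near the middle arrays in the nerve panel (9.75 against 9.80 to 10.50) but with the other basal arrays in the hair cell panel.

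Genes of the nerve ending and of electrical excitability were called on the same side. Of 24 synaptic vesicle and release genes measured, 12 were called higher in the middle turn and none in the base, with a median difference of 1.08; 3 of the 12 are also in the nerve list. Pclo, a scaffold of the release site, read 149, 95.6, 121 and 77.7 in the middle turn and 44.8, 32.2, 74.1 and 38.1 in the base (2.39-fold, limma adjusted p = 0.00897). Sv2a, a vesicle glycoprotein, read 812, 450.3, 506 and 448 against 191, 123, 397 and 153 (2.76-fold, limma adjusted p = 0.00904). In both genes the third basal array again came near the middle range.

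Voltage-gated sodium channels, which carry the upstroke of the action potential, had 3 of 13 subunits called higher in the middle turn. Scn1a read 386, 212, 248 and 187 against 81.3, 46.8, 185 and 53.8, 3.17-fold apart, and Scn8a, the channel of the nodes of Ranvier, differed 2.77-fold (limma adjusted p = 0.0115 and 0.0102). With the mean linear signal the difference of Scn8a was 0.24 (limma adjusted p = 0.178). Scn4b, an accessory subunit, differed 3.12-fold (limma adjusted p = 0.0129). Among voltage-gated potassium channel alpha subunits, 9 of 39 were called higher in the middle turn and none in the base, with Kcna10, Kcnd2 and Kcns3 among them. Kcna10, whose single probe read 1225, 1234, 1180 and 1174 in the middle turn, read 406, 244, 463 and 393 in the base (3.28-fold, limma adjusted p = 8.41e-05). Kcnd2, a channel of transient currents, read 98.5, 57.8, 53.0 and 50.8 against 16.9, 11.7, 32.1 and 15.6 (3.53-fold, limma adjusted p = 0.00306). For both Kcna10 and Kcnd2, replicate 2 was the lowest basal array and replicate 3 the highest. Kcns3, also measured by 1 probe, was 3.28-fold higher in the middle turn (limma adjusted p = 0.000584).

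Of 17 accessory subunits of potassium channels, 4 were called higher in the middle turn. They included Kcnip4, which binds channels of the Kcnd family and had the largest difference of all genes named on the middle side. Kcnip4 read 271, 155, 146 and 141 in the middle turn and 15.4, 19.5, 35.4 and 16.4 in the base, a difference of 3.07 (SE 0.28) with a limma adjusted p of 6.83e-05. Middle replicate 1 and basal replicate 3 were each the highest of their turn. All 8 of its probes were well above background on all 4 middle arrays, and 1 of them was on all 4 basal arrays, so its basal level is poorly measured.

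A smaller share of calcium channel and transmitter receptor genes was called. On the adjusted p alone, 9 of 26 calcium channel subunits and 8 of 18 glutamate receptor subunits lay on the middle side, where 11.7% of all genes did. On the basal side 2 and none did, against 9.21% of all genes. Of 26 calcium channel subunits, 2 were called higher in the middle turn (Cacna2d3 and Cacng2) and 1 in the base, Cacng4, with 43.1, 53.5, 82.8 and 83.0 in the middle turn and 145, 146, 186 and 196 in the base (limma adjusted p = 0.00573). Of 18 ionotropic glutamate receptor subunits, 3 were called higher in the middle turn, among them Gria4 (2.84-fold, limma adjusted p = 0.0124) and Grin1 (2.31-fold, limma adjusted p = 0.012). The difference of Grin1 was short of 2-fold without basal replicate 2 (0.99) and with the mean linear signal (0.68). None of 19 GABA A receptor subunits was called by limma in either direction. On the middle side 1 passed on the adjusted p alone and 7 at an unadjusted p under 0.05, where 19.4% of all genes lay on the middle side.

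Most Schwann cell markers were also higher in the middle turn, by less. Of 17 myelin and Schwann cell markers measured, 2 were called higher in the middle turn, 14 passed on the adjusted p alone, and the median difference was 0.79. Egr2, a transcription factor of myelinating Schwann cells, read 433, 366, 317 and 300.3 against 131, 107.1, 225 and 159.7 (2.34-fold, limma adjusted p = 0.00249). Ugt8a, an enzyme of myelin lipid synthesis, read 1285, 803, 787 and 762 against 346, 189.8, 661 and 262 (2.72-fold, limma adjusted p = 0.0101). S100b was the only member higher in the base on the adjusted p, with 319600 to 351400 there and 234100 to 299000 in the middle turn (limma adjusted p = 0.0128). The mean log2 signal of the list was 10.65, 10.43, 10.41 and 10.39 on the middle arrays and 9.84, 9.46, 10.21 and 9.71 on the basal arrays, with basal replicate 3 again the highest of its turn. Of 8 markers of brain glia, which the central end of the nerve would bring, 1 was called, Aqp4, a water channel also made by supporting cells. Aqp4 read 248, 294, 294 and 257 in the middle turn and 131, 126, 116 and 130.2 in the base (2.17-fold, limma adjusted p = 4.28e-05).

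Hair cell genes were also higher in the middle turn, and the list mean of basal replicate 3 (6.30) was just under that of replicate 4 (6.32). In single called genes replicate 3 was often the highest basal array, as for Lhfpl5 (409, 259.5, 553 and 383) and Clrn1 (34.4, 17.3, 74.6 and 48.8). Others, such as Ocm and Pou4f3, were highest on basal replicate 4. Of 29 hair cell markers and hair cell deafness genes measured, 14 were called higher in the middle turn and none in the base, 22 passed on the adjusted p alone on the middle side, and the median difference was 0.91. Slc26a5, which encodes prestin, the motor protein of outer hair cells, read 207, 213, 224 and 200.5 in the middle turn and 46.9, 28.4, 55.5 and 55.1 in the base. Replicate 2 was the lowest basal array and replicates 3 and 4 the highest, all far below the middle turn. The difference was 2.23 (SE 0.19), with a limma adjusted p of 4.70e-05. All 17 of its probes were well above background on the 4 middle arrays and 7 on the 4 basal arrays. Ocm, the outer hair cell calcium buffer oncomodulin, read 9011, 9304, 10650 and 9597 against 3658, 2488, 4188 and 4763 (2.62-fold, limma adjusted p = 0.000406).

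The receptor subunits through which the brain damps outer hair cells were both called. Chrna9 read 176, 139, 175 and 174 against 77.3, 61.1, 81.2 and 68.9 and Chrna10 ran from 90.7 to 137 against 43.6 to 51.2, 2.30-fold and 2.38-fold apart, each with a limma adjusted p of 6.83e-05. Otof and Slc17a8, known from the inner hair cell synapse, were called as well. Otof, the calcium sensor otoferlin, ran from 206 to 232 in the middle turn and from 83.7 to 118 in the base (2.07-fold, limma adjusted p = 0.000145), and Slc17a8, the vesicle glutamate transporter of inner hair cells, differed 2.36-fold (limma adjusted p = 0.00011). The difference of Otof was short of 2-fold without basal replicate 2 (0.93), with median scaling (0.99) and after quantile normalization (0.95). That of Chrna9 was 0.63 with the median probe and 0.35 with the mean linear signal. Strc, the bundle protein stereocilin, differed 2.39-fold and Ptprq, a phosphatase of the bundle, 2.18-fold (limma adjusted p = 0.000124 and 0.000103).

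Other hair cell genes differed by less than 2-fold. Myo7a, a motor protein of the bundle, differed by 0.67 (SE 0.066; limma adjusted p = 0.000103), and Tmc1, part of the transduction channel, by 0.83 (SE 0.17; limma adjusted p = 0.00653). Myo6, a motor protein that other cells of the cochlea may also make, was slightly higher in the base at -0.21 (SE 0.056; limma adjusted p = 0.0202). The mean log2 signal of the list was 6.999, 7.02, 7.08 and 7.02 on the middle arrays and 6.22, 5.91, 6.30 and 6.32 on the basal arrays, which do not overlap. The count of 14 called hair cell genes moved with the treatment of low signals and with the scaling. It was 3 with the normexp background correction, 7 with 16 added to each signal and 5 with spike-in scaling.

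Markers of supporting cells, which surround the hair cells, differed by less. The median difference of 18 such markers was 0.25, or -0.022 with spike-in scaling. Their mean log2 signal ran from 9.86 to 9.91 in the middle turn and from 9.43 to 9.63 in the base. On the adjusted p alone 8 lay on the middle side and 3 on the basal side, against 11.7% and 9.21% of all genes. Of the 18, 3 were called higher in the middle turn and none in the base, against 2.21% and 0.451% of all genes. Besides Aqp4 these were Sox2, a transcription factor with a single probe that read 454, 387, 288 and 280.3 against 124, 90.2, 181 and 137 (limma adjusted p = 0.00146), and Prox1, with 285, 167, 200.7 and 171 against 67.8, 37.6, 154 and 57.5 (limma adjusted p = 0.0109). Sox2 is also known from glia and Prox1 from spiral ganglion neurons. Prox1 followed the nerve genes over the basal arrays, with replicate 3 highest.

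Several of the largest differences on the middle side belonged to genes of other kinds, with basal arrays close together. Emilin2, a matrix protein known from the basilar membrane, read 1495, 1654, 2257 and 2180 in the middle turn and 298, 292, 304 and 406 in the base. Its difference was 2.54 (SE 0.15; limma adjusted p = 5.46e-06), and it was the only one of 16 tectorial and basilar membrane proteins to be called. On the adjusted p alone 3 of the 16 lay on the middle side and 7 on the basal side, against 11.7% and 9.21% of all genes. Apoa4, an apolipoprotein, read 239.6, 233, 266 and 289.8 against 55.5, 45.4, 52.1 and 54.0, 4.96-fold apart (limma adjusted p = 2.11e-07). Apoc3, whose probes lie next to those of Apoa4 on chromosome 9, read 359.5, 324, 366 and 380.1 against 89.9, 82.0, 84.8 and 91.5, 4.10-fold apart (limma adjusted p = 2.11e-07). The 4 arrays of each turn lay close together in both genes. Each has 3 probes, and both calls depended on how these were combined, since the median probe gave 0.64 for Apoa4 and the log2 of the mean linear signal gave 0.31 for Apoc3. The remaining called apolipoprotein, Apof, has a single probe, was higher in the base and overlapped between turns, with 524, 221, 125 and 124 against 692, 2037, 562 and 515 (limma adjusted p = 0.023), and its call was lost without middle replicate 3 (-1.72), middle replicate 4 (-1.71) or basal replicate 2 (-1.51).

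Fst encodes follistatin, which binds activins and keeps them from their receptors. It read 766, 838, 608 and 656 in the middle turn and 226, 161, 175 and 129 in the base (4.20-fold, limma adjusted p = 4.12e-05), and it was the only one of 22 activin and BMP genes to be called. From the mean linear signal of its probes the difference of Fst was 0.83, short of 2-fold. Scgb1c1, a small secreted protein, read 275, 288, 312 and 324 against 72.0, 50.1, 60.8 and 75.2 (4.69-fold, limma adjusted p = 1.44e-05). Acbd7, an acyl-CoA binding protein, read 2682, 2565, 2286 and 2070 against 570.0, 401, 708 and 428 (4.66-fold, limma adjusted p = 1.44e-05). Basal replicate 3 was the highest basal array for Acbd7 but not for Fst or Scgb1c1.

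In several other leading genes on the middle side basal replicate 3 was well above the other basal arrays. Fgf10, a fibroblast growth factor, read 759.8, 364, 397 and 369.7 against 131, 53.2, 310.2 and 78.9 (3.93-fold, limma adjusted p = 0.0117). Zfp804a, a zinc finger protein, read 514, 289.9, 315 and 282 against 66.1, 46.0, 233 and 58.2 (4.23-fold, limma adjusted p = 0.00696). For 1700026D08Rik, a gene known by a clone name, replicate 3 read 69.0 against 24.1 to 28.5 on the other basal arrays and 137 to 203 in the middle turn (limma adjusted p = 0.000573). Fbxo40, an F-box protein, ran from 18.0 to 77.2 in the base, with no probe well above background on all 4 basal arrays, and from 91.6 to 162 in the middle turn (limma adjusted p = 0.00667). 4933402N22Rik had no probe above background in the base, where it read 5.76, 5.47, 8.23 and 5.81, and no fold is given for it.

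**Figure D2:**
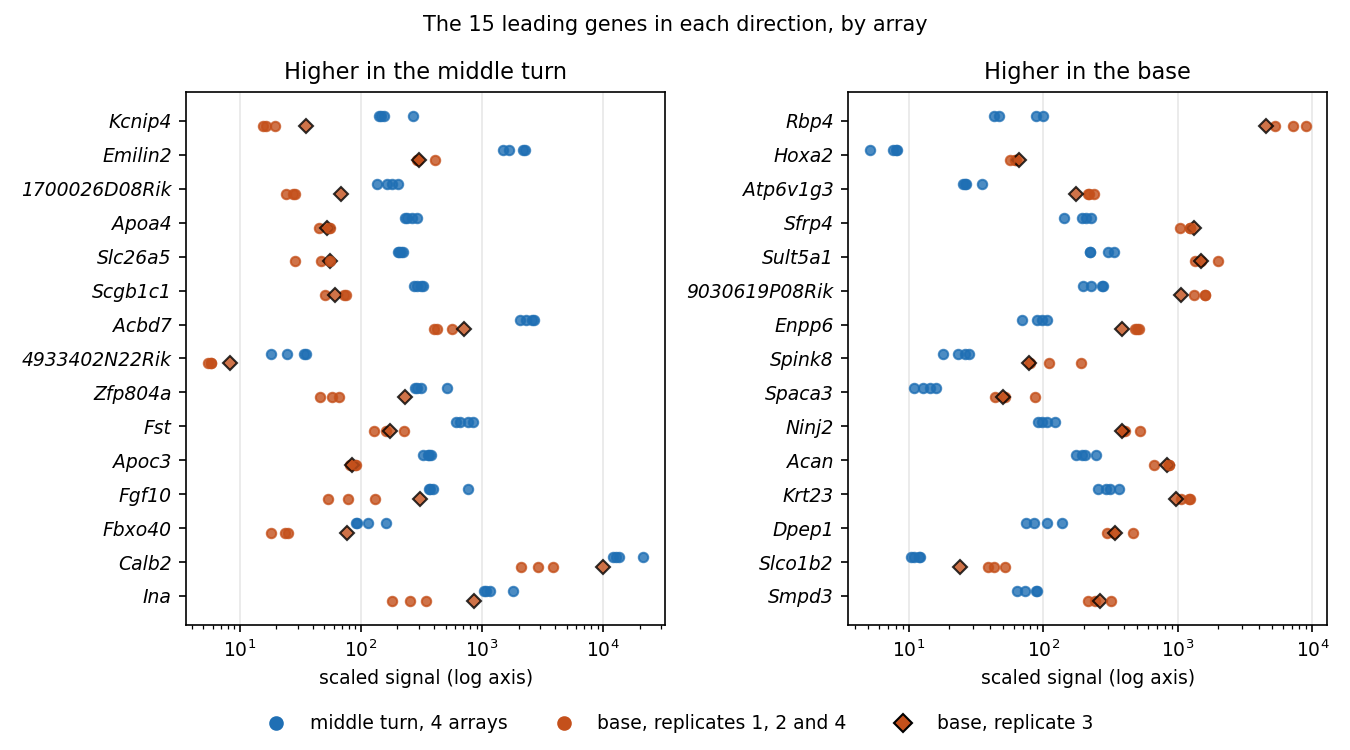
Scaled signal (log axis) of the 15 genes with the largest difference in each direction on the 4 middle and 4 basal arrays, 1 point per array, with basal replicate 3 drawn as a diamond. On the left, the diamond lies beside the middle turn for Calb2, Ina, Fgf10 and Zfp804a but with the other basal arrays for Emilin2, Apoa4 and Apoc3. Only genes without overlap of arrays were eligible, so on the right it lies above all middle arrays in each gene. For Slco1b2 it lies between them and the other basal arrays (23.8 against 38.4 to 51.9).

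On the basal side Rbp4 stood furthest apart. It encodes the carrier that brings retinol through the blood. Rbp4 read 42.7, 47.0, 87.4 and 99.0 in the middle turn and 5302, 7121, 4527 and 8898 in the base, 96.7-fold higher there, with a difference of -6.60 (SE 0.30; limma adjusted p = 6.15e-07). All 4 basal arrays were high and all 4 middle arrays low. The other 17 retinoid transport and metabolism genes held 1 call, Aldh1a3, on the middle side. Aldh1a3 overlapped between turns, with 1326, 750, 757 and 692 against 336, 164, 720 and 250 (limma adjusted p = 0.021). Basal replicate 3 was the highest of its turn, as in the nerve genes.

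Hoxa2, a homeobox gene, was at background in the middle turn (7.55, 8.10, 5.15 and 8.03) and read 61.4, 62.7, 65.3 and 56.4 in the base, at least 1.91-fold higher (limma adjusted p = 3.74e-07). Of its 2 probes, 1 was well above background on all 4 basal arrays. It was the only one of 39 Hox genes to be called, and 22 of the 39 had every probe below background throughout a turn. Atp6v1g3, a subunit of the proton pump of specialized acid-secreting cells, read 34.6, 25.0, 26.5 and 25.9 in the middle turn and 219, 214, 175 and 239.7 in the base (7.58-fold higher in the base, limma adjusted p = 3.74e-07). None of its probes was well above background on all 4 middle arrays, though each of these arrays had at least 1 that was. The other 7 proton pump subunits and partners measured were not called.

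The called genes among secreted inhibitors of Wnt signalling lay on both sides. Sfrp4 read 143, 193, 228 and 206 in the middle turn and 1240, 1033, 1311 and 1226 in the base (6.32-fold higher in the base, limma adjusted p = 8.03e-06). Wif1 went the other way, with 303, 359, 349.5 and 351 against 169, 137, 169.5 and 148 (2.19-fold higher in the middle turn, limma adjusted p = 6.03e-05), and Sfrp2 was 2.08-fold higher in the middle turn (limma adjusted p = 0.000957) on 3 probes. The direction of Sfrp2 depended on how probes were combined, since the log2 of the mean linear signal gave -0.0099, and its call was lost without middle replicate 4 (0.99) or basal replicate 3 (0.97). The other 10 of 13 Wnt inhibitors were not called. On the adjusted p alone 5 of the 13 lay on the middle side and 1 on the basal side, against 11.7% and 9.21% of all genes.

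Genes of cartilage and matrix were among the calls of the base. Acan, the large proteoglycan aggrecan, read 175, 203, 244 and 194 against 863, 667, 832 and 859 over 16 probes (3.95-fold higher in the base, limma adjusted p = 8.31e-05). Dmp1, a bone matrix protein, read 738 to 917 against 1607 to 1746, just at the limit (2.00-fold, limma adjusted p = 0.00119), and its call was lost without middle replicate 1 (-0.94), middle replicate 2 (-0.99) or basal replicate 3 (-0.98). The other 19 of 21 bone and cartilage genes were not called, and their list had a median of -0.08. Among 16 small leucine-rich proteoglycans, Chad was higher in the base (197 to 281 against 446 to 668, limma adjusted p = 0.000329), while Fmod (389 to 452 against 97.9 to 196, limma adjusted p = 0.000134) and Kera (136 to 213 against 55.7 to 79.8, limma adjusted p = 0.000702) were higher in the middle turn. None of 39 collagen chains was called by limma, with 6 on the middle side and 12 on the basal side on the adjusted p alone, and 7 and 12 at an unadjusted p under 0.05.

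The remaining leading genes of the base were enzymes, transporters and structural proteins. Sult5a1, a sulfotransferase, read 222, 221, 304 and 335 against 1491, 1342, 1494 and 1999 (5.88-fold higher in the base, limma adjusted p = 8.03e-06). Enpp6, a phosphodiesterase of choline lipids, read 69.4, 96.8, 89.9 and 106.8 against 478, 494, 381 and 517 (5.18-fold, limma adjusted p = 6.09e-06). 9030619P08Rik, Krt23, a keratin, and Ninj2, an adhesion protein, exceeded the middle turn 5.70-fold, 3.64-fold and 4.09-fold. Dpep1, a dipeptidase, was 3.61-fold higher, Smpd3, a sphingomyelinase, 3.30-fold and Slco1b2, an anion transporter, 3.35-fold. Of the 14 probes of Slco1b2, 1 was well above background on all 4 middle arrays and 6 on all 4 basal arrays. Its middle level is therefore poorly measured. Spink8, a peptidase inhibitor, ran from 17.8 to 28.0 in the middle turn and from 78.7 to 190.3 in the base. Spaca3 was below background in the middle turn and at least 1.74-fold higher in the base. No overlap between the arrays of the turns was a condition for naming these 8 genes after Enpp6. Their limma adjusted p ran from 8.03e-06 for Krt23 to 0.000792 for Spaca3. Krtap17-1, a keratin-associated protein with 1 probe, was at background in the middle turn and at least 2.59-fold higher in the base (limma adjusted p = 0.000103).

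Cell type lists of the lateral wall and of vessels each gave 1 call on the basal side, where 0.451% of all genes were called. In the stria vascularis list (24 genes, median -0.12) it was Slc22a2, an organic cation transporter, with 48.0, 50.6, 59.95 and 62.7 in the middle turn and 186, 180.3, 148 and 212 in the base (3.28-fold, limma adjusted p = 1.07e-05). In the ligament fibrocyte list (14 genes, median -0.29) it was Car2, carbonic anhydrase, with 11520, 13560, 12930 and 13880 against 30430, 33350, 24760 and 29510 (2.27-fold, limma adjusted p = 4.28e-05). In the vessel list (20 genes, median -0.14) it was Tagln, a smooth muscle protein, at 2.51-fold (limma adjusted p = 0.000122). On limma's adjusted p alone, 6 stria, 8 fibrocyte and 6 vessel genes lay on the basal side, where 9.21% of all genes did. On the middle side 1, 2 and 3 did, against 11.7% of all genes. The mean log2 signal of the fibrocyte list ran from 12.01 to 12.13 in the middle turn and from 12.30 to 12.40 in the base.

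Small differences toward the base were read against all genes, of which 9.21% lay on the basal side on the adjusted p alone and 15.6% at an unadjusted p under 0.05. All 15 macrophage and complement genes had a higher mean in the base, 9 of them on limma's adjusted p alone and 11 at an unadjusted p under 0.05, with none called. C1qb, a chain of complement, had the smallest adjusted p with signals of 713 to 822 in the middle turn against 1032 to 1252 (1.42-fold, limma adjusted p = 0.00417). None of 13 melanocyte genes was called, while 5 were higher in the base on the adjusted p alone and the same number at an unadjusted p under 0.05. Kit, a growth factor receptor, differed by 1.79-fold (limma adjusted p = 0.000798). None of 83 nuclear genes of oxidative phosphorylation was called, and 9 were higher in the base on the adjusted p alone, a share near that of all genes, and 25 at an unadjusted p under 0.05. Their median of -0.09 was 0.016 after quantile normalization. Cox7a1, a muscle form of a cytochrome oxidase subunit, differed by 1.95-fold (limma adjusted p = 0.000109).

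Genes that another tissue in the piece would bring were looked at in the same way. The 9 skeletal muscle genes held 1 call, Pvalb, which is also known from spiral ganglion neurons, with 14770, 8173, 10010 and 9065 in the middle turn and 3805, 2093, 8471 and 3647 in the base. Its turns overlapped (limma adjusted p = 0.0173), and its call was lost without middle replicate 1 (1.19). None of 15 blood and marrow genes, 7 otoconial and vestibular genes or 80 ribosomal protein genes was called by limma. On the adjusted p alone no blood, marrow or ribosomal gene passed, and 1 vestibular gene did, on the middle side. At an unadjusted p under 0.05, limma gave 2 ribosomal genes on each side, 2 vestibular genes on the middle and 1 on the basal side, and no blood or marrow gene. Of 83 keratins and keratin-associated proteins, 1 was called on the middle side and 2 were called on the basal side. Of 20 immediate early genes Egr2 alone was called.

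**Figure D3:**
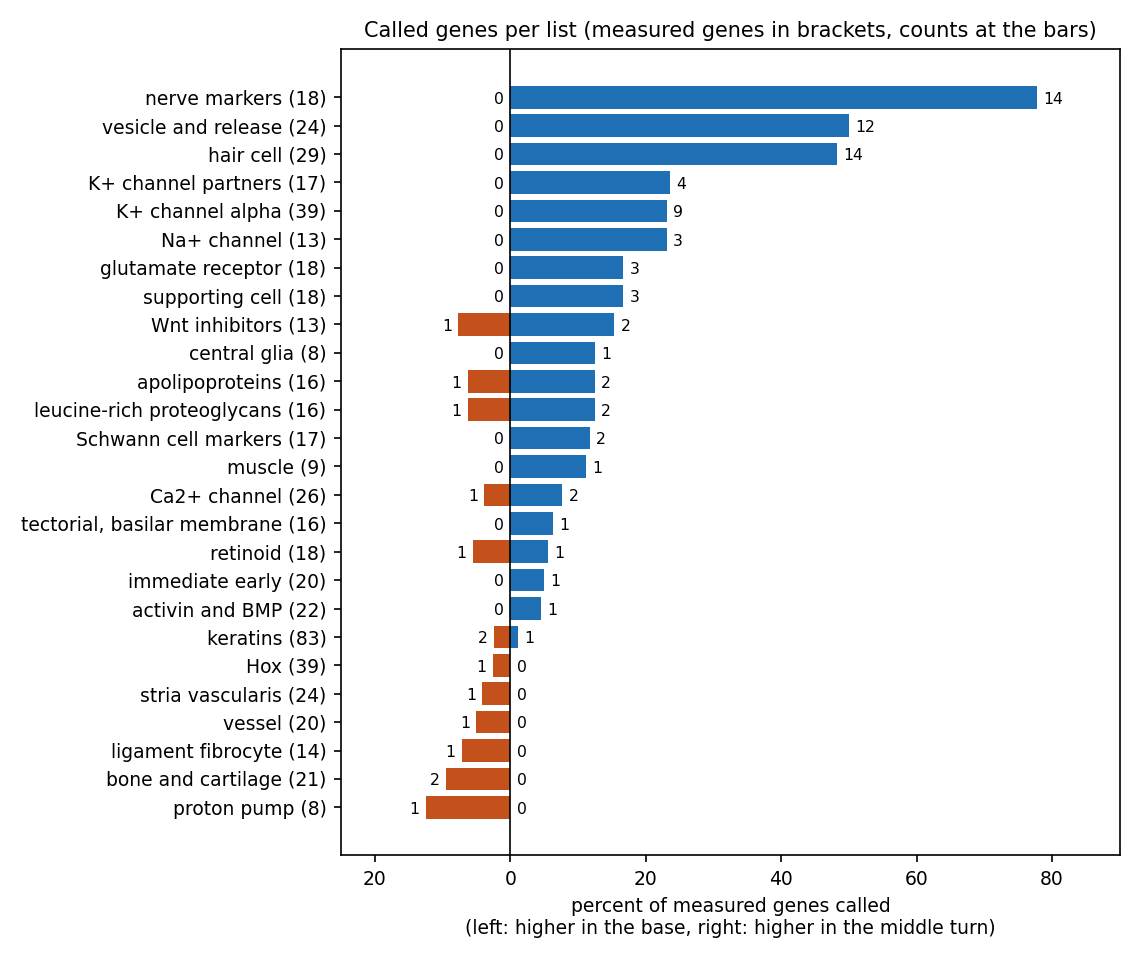
Percent of the measured genes of each list that were called higher in the middle turn (right, blue) or in the base (left, orange), with the number of called genes at each bar and of measured genes in brackets. Calls of nerve markers (14 of 18), vesicle and release genes (12 of 24) and hair cell genes (14 of 29) all lie on the middle side, against 2.21% of all genes.

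To see how much of the step follows the nerve content of single arrays, the nerve score was added to limma's model of all 12 arrays as a covariate, with the 18 nerve markers themselves left out. The slope, the log2 change of a gene per log2 unit of nerve score among arrays of the same turn, was positive with an adjusted p under 0.05 for 882 of 19487 genes (4.53%) and negative for 91 (0.467%). Of the 417 called genes on the middle side outside the nerve list, 303 had such a positive slope and none a negative one. Of the 88 called genes of the base, 4 had a negative slope and none a positive one. Ank1, an ankyrin that anchors channels, read 379, 219, 246 and 213 in the middle turn and 97.0, 51.6, 199 and 75.6 in the base, and its slope was 1.14 (limma adjusted p = 6.17e-07). Scn4b and Prox1 had slopes of 1.28 and 1.16 (limma adjusted p = 6.44e-07 for both).

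With the score in the model, 52 genes (0.267%) were called on the middle side and 43 (0.221%) on the basal side. Of these, 45 and 37 were called without the score too. The median difference of the 417 middle-side genes went from 1.26 to 0.17, with a median of 13.8% of the difference left, and 84 of them changed sign. In the 88 genes of the base it went from 1.32 to 1.21 toward the base, with a median of 89.2% left and no change of sign. The median SE of the genes of the base went from 0.157 to 0.253, and that of the middle-side genes from 0.271 to 0.136.

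The gene groups differed in how much of their difference was left. The 9 called vesicle and release genes outside the nerve list went from a median of 1.28 to 0.053, and all 9 had a positive slope. Of the potassium channel alpha subunits, 13 of 39 had a positive slope, and of the 9 called ones Kcna10 alone stayed called, at 1.23 (limma adjusted p = 0.0173). Scn1a went from 1.66 to 0.07 and Gria4 from 1.51 to 0.04. Fgf10 went from 1.97 to 0.07, with a slope of 1.496 (limma adjusted p = 1.46e-06). The 14 called hair cell genes kept more, from a median of 1.25 to 0.92, with 79.1% left in the median gene, and 3 of them had a positive slope. Of the 14, 4 stayed called, among them Slc26a5 at 1.80 (limma adjusted p = 0.014) and Chrna10 at 1.36 (limma adjusted p = 0.00862).

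Among the genes with the largest differences left on the middle side were Emilin2 at 2.70, Apoa4 at 2.28, Scgb1c1 at 2.23 and Kcnip4 at 2.17, with limma adjusted p from 0.000222 to 0.0113. Scgb3a2, a secreted protein, was called too but had a probe well above background on 1 middle array and on no basal array, so no difference is given for it. On the basal side they included Rbp4 at 5.94, Atp6v1g3 at 2.87 and Sfrp4 at 2.68 toward the base. Krtap17-1 and Hoxa2 stayed called there as well, and being at background in the middle turn have only the bounds given above. For Emilin2 and Apoa4 the slopes were -0.13 and 0.02, with limma adjusted p of 0.792 and 0.943. These counts rest on basal replicate 3. Without it the model called 11 genes on the middle side and 14 on the basal side. The Schwann cell mean was also highest on replicate 3 among the basal arrays, and with it in place of the nerve score 31 genes were called on the middle side and 27 on the basal side. Kcnip4, Slc26a5, Kcna10 and Krtap17-1 were then no longer called, while Emilin2, Apoa4, Scgb1c1, Rbp4, Atp6v1g3 and Sfrp4 stayed called. The count of called hair cell genes was 1 with the Schwann score, against 4 with the nerve score.

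**Figure D4:**
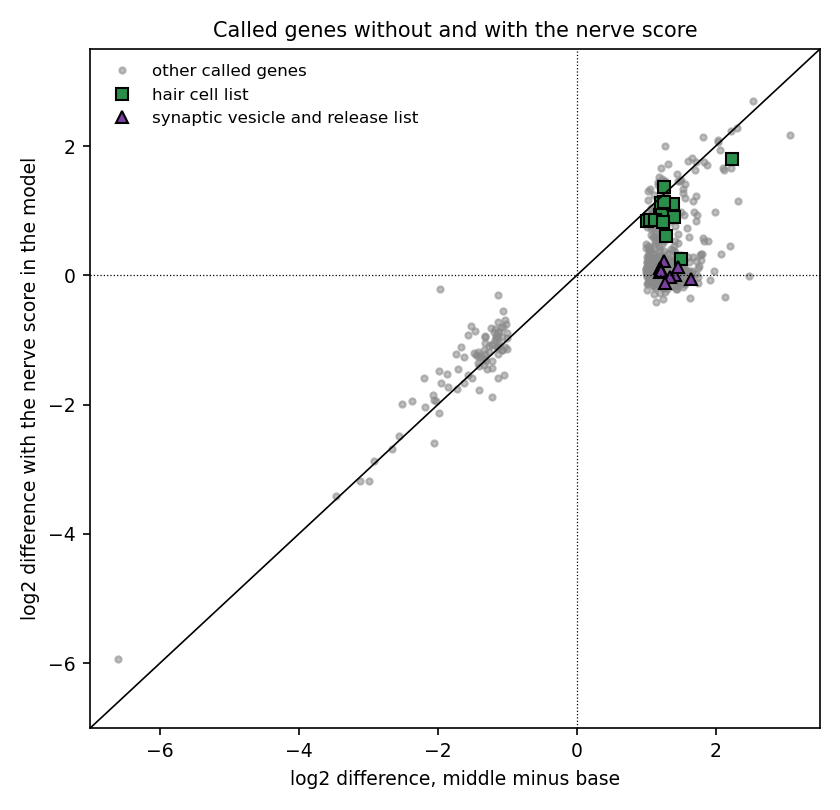
Log2 difference, middle minus base, of each called gene outside the nerve list in the model without the nerve score (x axis) and with it (y axis); the solid line marks equal values. Vesicle and release genes (triangles) lie near 0 on the y axis, hair cell genes (squares) mostly near the line, and genes higher in the base close to the line.

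The basal arrays were also read one by one, without a covariate. Genes at least 2-fold below the middle mean numbered 548, 882, 215 and 630 on basal replicates 1 to 4, in the reverse order of their nerve scores. Genes at least 2-fold above it numbered 163, 216, 147 and 243. Of the 431 called genes on the middle side, 85 lay within or above the range of the middle arrays on basal replicate 3, against 1, 0 and 1 on replicates 1, 2 and 4. Each basal array was then set against calls made without it. Of the genes called higher in the middle turn from the other arrays, 85.4%, 96.4%, 11.2% and 86.6% were 2-fold or more below the middle mean on the left-out replicates 1 to 4. Of the genes called higher in the base, 79.8%, 81.7%, 59.0% and 87.7% were 2-fold or more above it. On basal replicate 3, 418 of the 590 middle-side genes so called were below all 4 middle arrays, though 66 were 2-fold below their mean.

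**Figure D5:**
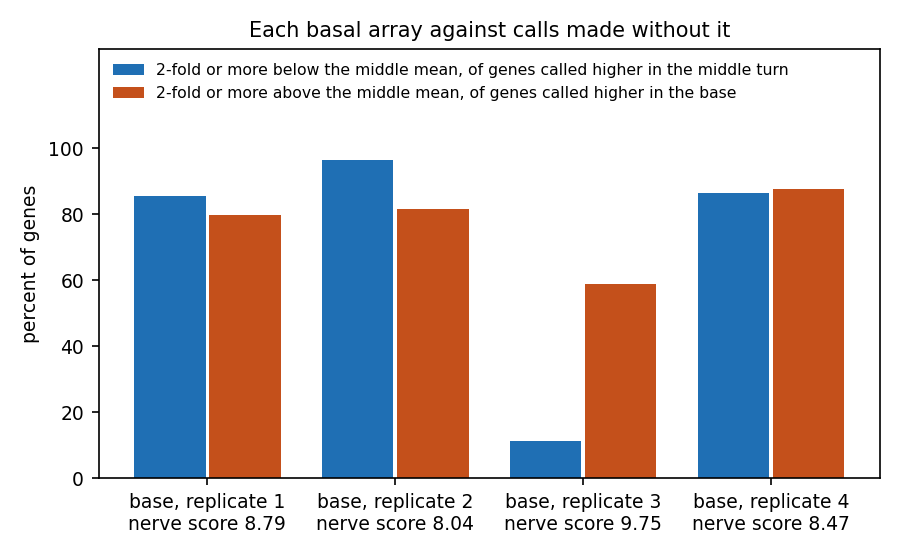
For each basal array, the percent of genes called from the other arrays that differed 2-fold or more from the middle mean on that array, for genes higher in the middle turn (blue, below the mean) and in the base (orange, above it), with its nerve score under the axis. Replicate 3, with the highest score (9.75), stands out at 11.2% against 85.4% to 96.4%.

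The apical arrays give the level on the far side of the middle turn. Their nerve scores of 10.22, 9.91, 10.22 and 10.01 lay within the range of the middle turn, while their hair cell means of 7.32, 7.41, 7.37 and 7.18 were all above it. Rbp4 read 27.8, 22.5, 30.6 and 35.6 in the apical turn and Emilin2 4377, 3966, 3562 and 4347, so that the middle turn lay between apex and base in both. Scgb1c1 read 162, 193, 220.3 and 272 there, below the middle turn.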

How the data were processed

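Total RNA of cochlear turns was hybridized in 1 colour (Cy3) to Agilent mouse exon arrays. The deposited files hold scanner intensities, which the authors extracted with Agilent Feature Extraction (version 10.7.3.1, probe positions on mm9), whose processed signal is already background-subtracted. A deposited table of the series holds the same processed signals and was not used further.

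In this reanalysis, control spots and 622 spots marked as outliers on any array were left out, which left 165865 probes. Each array was scaled so that its 75th percentile equalled the median of all arrays (641), log2 values were averaged over spots of a probe and then over probes with 1 gene name, which gave 19505 genes, 3237 of them with 1 probe. No spot was saturated. Deposited intensities became log2 values at this step. Limma 3.58.1 in R 4.3.3 fitted the 3 turns over 12 arrays, with Benjamini-Hochberg adjustment over all genes. The median SD between arrays was 0.126 log2 units for the middle and 0.115 for the basal arrays. The number of arrays limits the precision. Within a turn, arrays correlated at 0.991 to 0.995 and no pair was a copy. A bound of the form "at least" sets the brighter turn against the dimmest signal well above background, where every probe of the other turn was below background. The scripts were tested on simulated data.

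Genes named were the 15 with the largest difference in each direction among called genes with 2 or more probes, a probe well above background in the brighter turn and no overlap of arrays, up to 4 called members of each list, members of the nerve, Schwann and hair cell lists, and the 5 leading genes of the nerve score model. Members and lists were chosen with earlier results of these data known. Other scalings, background corrections, summaries of probes, covariates, tests and left-out arrays were tried as alternatives. Sox10, Loxhd1, Otogl, Igll1, Sv2c and Apol6 were in the lists but are not analysed here. A few genes of the lists are not reported by name here. No genome was used, so probes were not aligned again, and cross-hybridization between near-identical genes was not tested.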

Additional observations from a re-analysis of the deposited data

Results flagged for a closer look

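In 26 of 230 groups of 4 arrays looked at, 1 array lay so far from the other 3 on the log2 scale that the gap, as a share of the whole range, passed Dixon's critical value for groups of that size. Chance alone gives about 1 such group in 20. No cause was tested for any of them.

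Middle replicate 1, the array with the highest nerve score, was the one apart most often in the middle turn. Of the nerve list it was high for Snap25 (8758 against 5042 to 5278 on the other middle arrays, gap share 0.917), Rbfox3 (0.889) and Slc17a7 (0.863), and of other genes for Fgf10 (0.881), Kcnip4 (0.857) and Ugt8a (0.901). It was high too in the means of the Schwann cell list (0.853), the sodium channels (0.855) and the glutamate receptors (0.847). It was low for Wif1 (303 against 349 to 359, gap share 0.836) and in the mean of the tectorial and basilar membrane list (0.849).

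Basal replicate 3, with the highest nerve score of its turn, was high for 1700026D08Rik (0.839) and 4933402N22Rik (0.853). Its mean over the bone and cartilage list was 8.21 against 7.67 to 7.74 on the other basal arrays (gap share 0.872), and its mean over the brain glia list was the lowest of its turn, 6.00 against 6.20 to 6.21 (0.981). Basal replicate 2 was low for Acan (667 against 832 to 863, gap share 0.860), Otof (0.855) and Strc (0.887). Basal replicate 4 was high for Emilin2 (406 against 292 to 304, gap share 0.875), Ninj2 (0.842) and the vessel list (0.928), and low for Gap43 (0.850).

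The other 4 groups were in the middle turn. Replicate 2 was low for Chrna9 (139 against 174 to 176, gap share 0.955). Replicate 3 was low for Hoxa2 (0.845) and Krtap17-1 (0.855), both at background there, and for the mean of the keratin list (0.837).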

How the results depend on the processing

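Scaling to spike-ins gave 210 genes on the middle side and 252 on the basal side, against 431 and 88. The normexp correction gave 130 and 40, and 12 and 26 with the nerve score against 52 and 43. Adding 16 to each signal gave 255 on the middle side, the 8 arrays of both turns alone gave 32 there with the nerve score, and the adjusted p without a fold limit gave 2275 and 1796. As covariates, the nerve score gave 52 and 43 and the Schwann score 31 and 27. Leaving out 1 array gave 279 (without basal replicate 2) to 590 (without basal replicate 3) genes on the middle side and 80 to 100 on the basal side, and with the nerve score 11 to 61 and 14 to 47, both lowest without basal replicate 3. Same-numbered arrays of both turns had correlated deviations of 0.025 to 0.23, and 5 of 8 arrays correlated best with their own number. The numbers were not taken as pairs, since not every pair was over 0.1; with the replicate block 439 and 86 genes were called, and 11 and 20 with the nerve score. The cause of these moves was not tested.

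Of 2171 gene results under these alternatives 1973 kept direction and side of the threshold, 158 no longer passed, 13 newly passed and 27 changed sign. With spike-in scaling Gap43 was at -0.037, and with the mean linear signal Sfrp2 at -0.0099. With the nerve score Pvalb was at -0.077, Snap25 at -0.0062, Rbfox3 at -0.42, Slc17a7 at -0.024 and Gap43 at -0.093. With the Schwann score the values were Zfp804a -0.049, Fgf10 -0.37, Calb2 -0.11, Ina -0.14, Ugt8a -0.22, Prox1 -0.24, Pvalb -0.37, Sv2a -0.13, Scn8a -0.16, Scn1a -0.24, Scn4b -0.33, Grin1 -0.22, Gria4 -0.27, Nefl -0.37, Prph -0.0062, Snap25 -0.34, Rbfox3 -0.60, Slc17a7 -0.33, Gap43 -0.029 and Ank1 -0.30. Of 71 named called genes 12 lost their call with spike-in scaling and 31 with normexp, among them Apoc3, Hoxa2, Syt1, Egr2, Aqp4, Chrna9, Chrna10, Slc22a2, Wif1, Kcnd2, Otof and Ank1. With the mean linear signal Aqp4 (0.96), Pclo (0.94), Wif1 (0.90), Otof (0.88) and Strc (0.84) were short of 2-fold, with the median probe Car2 (-0.96), and after quantile normalization Ptprq (0.96) and Dmp1 (-0.95). In both turns every probe of 2248 genes was below background, and their differences were not measured.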
